A study of Caenorhabditis elegans with 16 samples.

Results

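Worms given curcumin and sulforaphane together were compared with untreated worms across all expressed genes. The comparison rests on 8 of the 16 libraries of the study, 4 from the combination and 4 from the control. All 16 libraries entered the model, so that the 4 groups shared an estimate of the spread between replicates. The authors' table lists 47029 genes, of which 14328 had enough reads to be tested, and the text below describes what changed among them.

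All groups were whole adults of the nematode Caenorhabditis elegans. The strain, SS104, has a temperature-sensitive allele of glp-4, bn2. This mutation blocks the growth of the germ line at the restrictive temperature, so the adults were sterile, and the control animals carried it too. Worms were kept at 15 °C, moved to 24 °C as L2 or L3 larvae, fed Escherichia coli OP50 on plates, and harvested as adults on day 3. The compounds were laid over the bacterial lawn from the L4 stage. Curcumin was given as a phytosome, a complex with phospholipid, at 5 mg/mL, and sulforaphane at 0.625 mg/mL. The combination held both at those doses. No vehicle is named for the untreated control, so the phytosome carrier and its compound cannot be told apart. The series describes 4 independent biological replicates in each group.

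Curcumin is the yellow polyphenol of turmeric, and sulforaphane is an isothiocyanate from cruciferous vegetables that in mammals activates the transcription factor NRF2. The nematode counterpart of NRF2 is SKN-1, which controls glutathione S-transferases and other conjugating enzymes. Worms meet ingested chemicals first in the intestine, where cytochrome P450s and dehydrogenases modify a compound, transferases conjugate it to glutathione or a sugar, and ABC transporters export the product. The same organ makes yolk, stores fat and secretes lysozymes, lectins and CUB-domain proteins that act against microbes.

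The libraries held 14960535 to 15720697 counts in the control and 14348201 to 16567692 in the combination. Between 18652 and 19027 genes had a read in a control library, and between 18434 and 18662 in a combination library. No library of either group stood apart: the correlation of log2 CPM (counts-per-million, with the library size adjusted by the trimmed mean of M values) within a group ran from 0.981 to 0.987. Ribosomal RNA took 1.46% to 2.81% of the counts. Of 10 intestinal markers, 9 were lower in the combination and vit-2 was not called, whereas 8 of 10 body-wall muscle markers were higher. Summed intestinal markers, in which vit-2 weighs most, stood at 53502 to 56266 CPM in the control and 51542 to 63495 CPM in the combination. The muscle markers summed to 2675 to 3020 CPM and 3174 to 4284 CPM. Of 10 germline markers, 2 were lower, and their sum was 398 to 523 CPM in the control and 351 to 439 CPM in the combination. Oocyte markers were at higher levels, with sums of 9913 to 10577 CPM in the control and 7453 to 10467 CPM in the combination. Among these 10, oma-2 was higher and 0 were lower. Sperm markers summed to 27.9 to 52.5 CPM and 17.1 to 31.8 CPM, with 3 of 10 lower and 0 higher. None of the markers of any tissue examined was at 0 in all 8 libraries. In whole worms, fewer cells of a type and less RNA per cell cannot be told apart, and the part of tissue composition in the results below was not tested.

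The combination changed 3303 of the 14328 tested genes (23.1%) at an adjusted p under 0.05 in edgeR's quasi-likelihood test. Of these, 1728 (12.1%) were higher and 1575 (10.99%) were lower, and the median log2 change over all tested genes was -0.02. The 4 combination libraries did not overlap the 4 control libraries for 3264 genes (22.8%), and 821 genes (5.73%) were both called and changed at least 2-fold, 377 of these upward (2.63%) and 444 downward (3.099%). More members were called higher than lower among conjugating enzymes, muscle genes, cuticle collagens and genes of fatty acid oxidation and yolk. More were called lower than higher among CUB-like genes, lysozymes, C-type lectins, lipases, scavenger receptors and genes of the intracellular pathogen response. In several of these lists a large share of the members was not called.

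**Figure D1:**
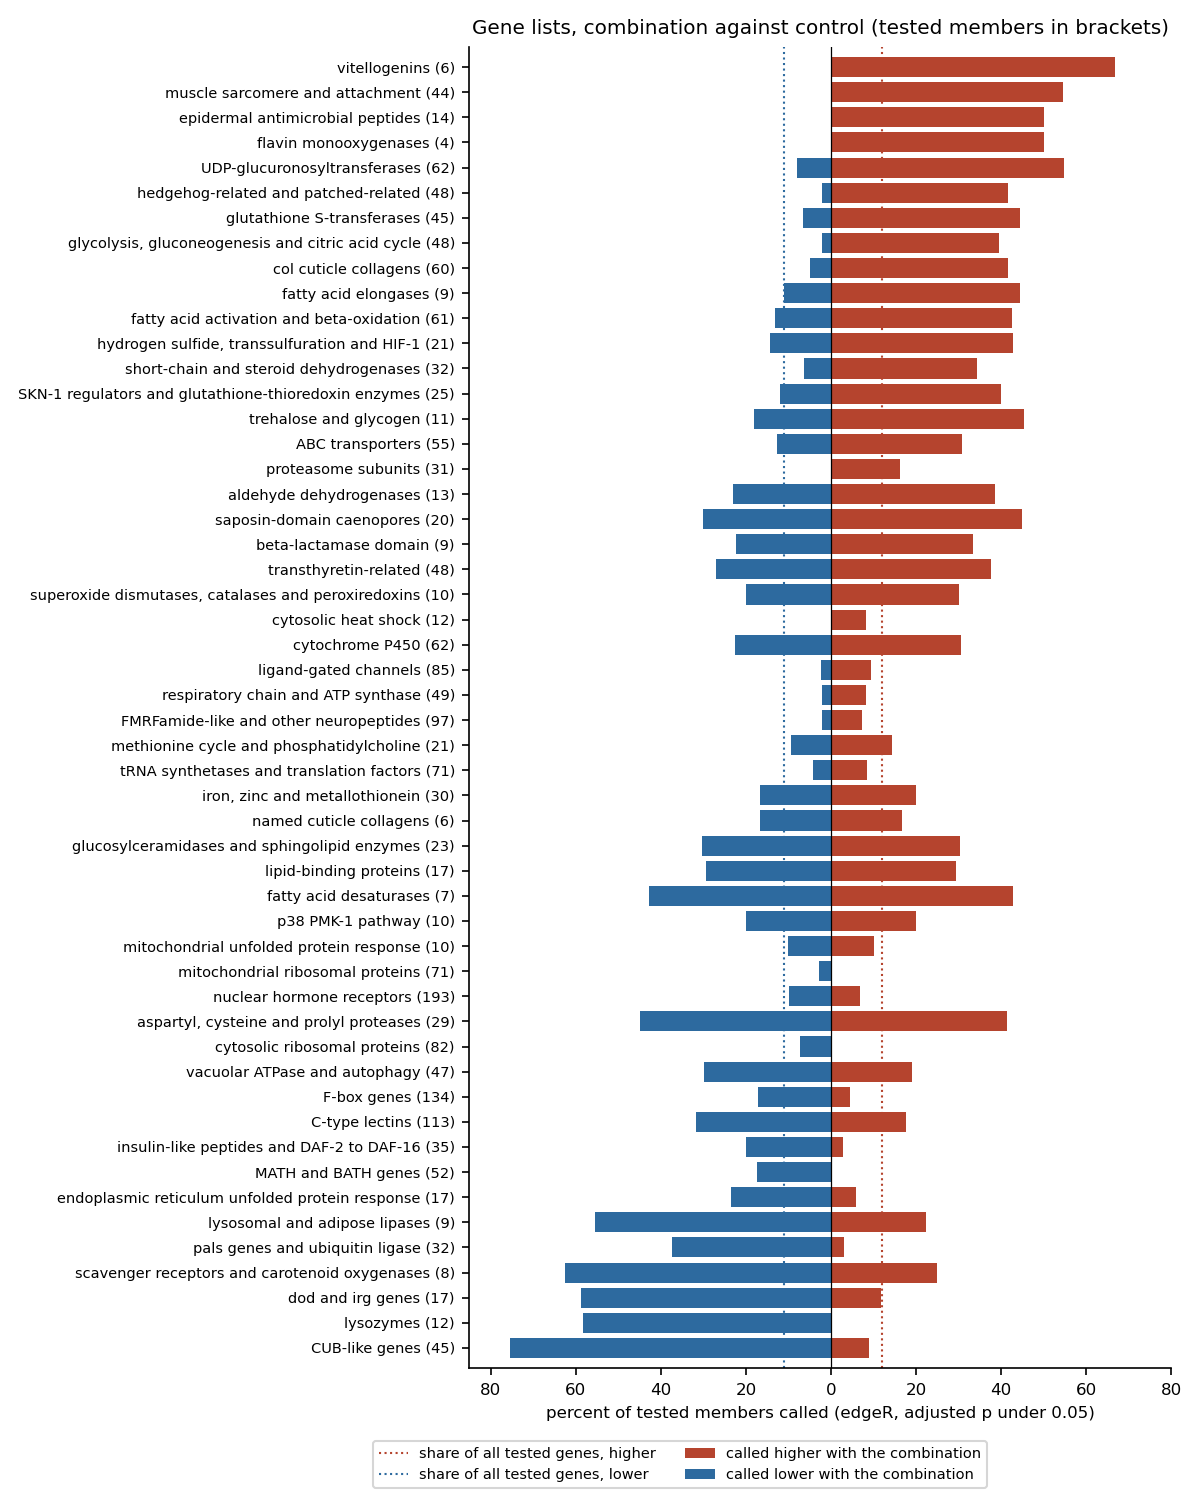
Share of the tested members of each of 52 gene lists that were called higher (red, to the right) or lower (blue, to the left) with the combination, in percent, with the number of tested members in brackets. The dotted lines mark the shares over all tested genes, 12.1% higher and 10.99% lower, and the CUB-like genes and the vitellogenins stand at the ends of the range.

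The largest rises included genes of detoxification enzymes and of secreted antimicrobial and digestive proteins. The glutathione S-transferase gene gst-37 stood at 54.3, 58.6, 51.9 and 45.8 CPM in the combination libraries, and the control libraries together held 1 read of it. Scaled for library size, the ratio of the summed counts was 3279.9, with a 95% interval of counting error from 588 to 129589. The steroid dehydrogenase gene stdh-2 read 1.71, 1.87, 1.44 and 1.47 CPM in the control and 297, 300, 338 and 266 CPM in the combination, a log2 change of 7.53 ± 0.13 (SE; adjusted p = 7.5e-23). In both genes every combination library lay above every control library, as the choice of genes had required.

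A pair of saposin-domain genes rose as steeply. Saposin-domain proteins of worms, the caenopores, open pores in bacterial membranes. The gene spp-9 had 1.64, 3.27, 7.99 and 10.39 CPM in the control and 2154, 1994, 2608 and 2740 CPM in the combination, so its control libraries were scattered over a wide range while the treated ones were uniformly high. Its log2 change was 8.66 ± 0.36. For spp-12 the control values of 3.41, 3.07, 2.56 and 3.89 CPM and the combination values of 455, 486, 448 and 481 CPM gave a log2 change of 7.17 ± 0.14. The remaining genes among the 10 largest rises were gst-31 (7.02 ± 0.24), the aspartyl protease gene asp-15 (8.70 ± 0.41), the beta-lactamase-domain gene lact-6 (6.39 ± 0.23), ZK697.14, a short-chain dehydrogenase (6.47 ± 0.35), C15B12.8 (6.58 ± 0.15) and D1086.9 (5.46 ± 0.43), all as log2 change with SE. The control libraries held 5 reads of asp-15 in all, so the size of that rise is poorly fixed. Gene lact-6 overlaps C06A12.3, and without knowledge of strand in the counting their reads may be mixed.

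The deepest fall was that of C17F4.7, for which the files give no role. It read 6824, 6579, 5882 and 5227 CPM in the control and 28.1, 27.5, 24.45 and 24.3 CPM in the combination, a log2 change of -7.87 ± 0.16 (adjusted p = 7.3e-22). A CUB-like gene, F55G11.4, went from 5254, 6115, 5203 and 4804 CPM to 153, 140, 132 and 126 CPM (log2 change -5.28 ± 0.09). For both, the highest combination library was more than an order of magnitude under the lowest control library. As to the spread of the libraries, the choice of genes had required only that the groups not overlap.

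Other deep falls included genes of lipid handling. The lipase gene lipl-5 read 1233, 1211, 1029 and 975 CPM in the control against 43.2, 51.6, 43.7 and 36.6 CPM (log2 change -4.67 ± 0.13). The C-type lectin gene clec-42 (-6.62 ± 0.38), the glucosylceramidase gene gba-4 (-5.21 ± 0.18), the CD36-type scavenger receptor gene scav-5 (-5.17 ± 0.23), dod-21 (-5.24 ± 0.28), C50F7.5 (-4.39 ± 0.18), and the transmembrane glycoprotein genes Y47H9C.1 (-4.25 ± 0.11) and B0024.4 (-4.17 ± 0.13) completed the 10 largest falls, in log2 change with SE. Gene scav-5 overlaps gst-36, and their reads may be mixed. These falls met the conditions on mean CPM and overlap given above. Outside them, the lists held changes deeper than that of lipl-5, -5.49 in a MATH or BATH gene and -4.94 in a protease gene.

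**Figure D2:**
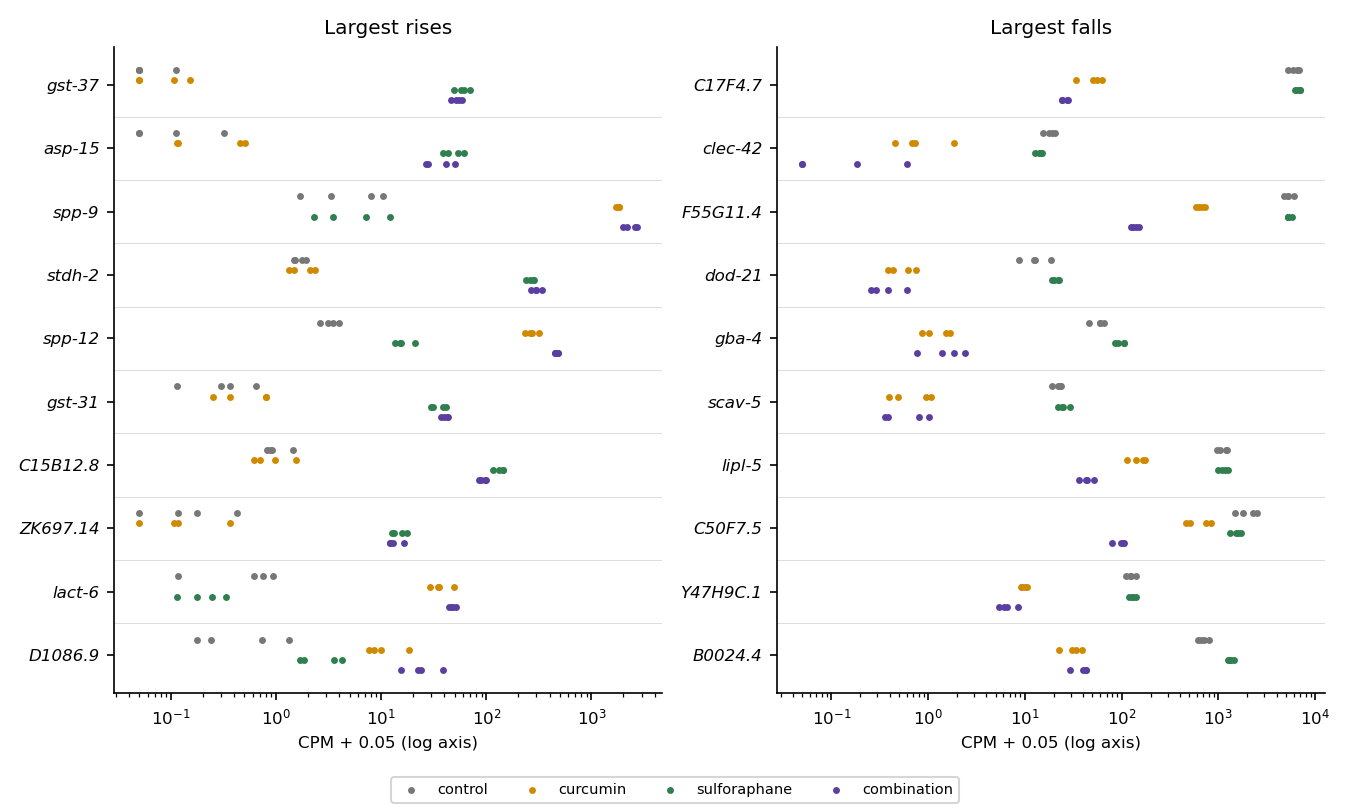
CPM plus 0.05 on a log axis for the 10 largest rises (left) and the 10 largest falls (right), 1 point per library and 4 libraries per group. For gst-37 the sulforaphane libraries sit with the combination and the curcumin libraries with the control, while for spp-9 and F55G11.4 it is the curcumin libraries that leave the control.

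Measured in CPM rather than in fold, yolk genes gained most among the called genes, and lys-7 lost most, followed by C17F4.7, F55G11.4 and asp-6. The yolk protein gene vit-5 rose from 69509, 71698, 74576 and 72109 CPM to 99026, 95856, 90273 and 91541 CPM, a log2 change of only 0.39 ± 0.06. The lysozyme gene lys-7 fell from 18727, 21043, 18938 and 17551 CPM to 6040, 7086, 6419 and 6700 CPM (log2 change -1.54 ± 0.06). Neither pair of groups overlapped. The aspartyl protease genes asp-6 (log2 change -1.57 ± 0.08) and asp-5 (-1.22 ± 0.08), dod-19 (-2.23 ± 0.09) and clec-41 (-1.14 ± 0.08) were also among the 10 genes that lost most CPM. The thaumatin gene thn-2 (1.48 ± 0.08) was among the 10 that gained most.

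Among enzymes that modify a compound before conjugation, the changes went both ways. Of 62 tested cytochrome P450 genes (74 listed), 19 were higher and 14 lower, with a median log2 change of -0.02. Gene cyp-13A10 read 7.27, 6.33, 6.68 and 6.70 CPM in the control and 150, 144, 125 and 131 CPM in the combination (log2 change 4.35 ± 0.10). Its neighbour in the family cyp-13A3 rose by 3.64 ± 0.13 and cyp-33C2 by 4.43 ± 0.19 on the log2 scale. In the other direction, cyp-37B1 changed by -3.87 ± 0.22 and cyp-35A2, a gene known for its response to many xenobiotics, by -0.71 ± 0.10.

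Among other oxidising enzymes, more were called higher than lower. Of 32 tested short-chain and steroid dehydrogenases (34 listed), 11 were higher and 2 lower, and of 13 aldehyde dehydrogenases 5 were higher and 3 lower. Both fmo-3 and fmo-4, flavin monooxygenases, were called among 4 tested members (5 listed). Gene fmo-3 read 34.3, 41.8, 46.1 and 39.7 CPM in the control and 78.6, 83.2, 108 and 84.1 CPM in the combination, with a log2 change of 1.13 ± 0.10 and no overlap. The combination was above curcumin (log2 difference 0.78, adjusted p = 5.3e-06) and above sulforaphane (0.54, adjusted p = 0.00024).

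Genes for conjugation to glutathione were mostly higher where they changed. Of 45 tested glutathione S-transferase genes (49 listed), 20 were higher and 3 lower, with a median log2 change of 0.48, and the summed CPM of the list rose from a range of 632 to 704 to a range of 1454 to 1753. Gene gst-5 contributed much of that sum, at 32.1, 26.3, 39.5 and 36.3 CPM in the control and 560, 625, 508 and 461 CPM in the combination (log2 change 4.002 ± 0.13). The SKN-1 target gst-4, a common reporter of oxidative stress, read 39.9, 37.2, 33.8 and 29.97 CPM against 74.8, 71.3, 83.5 and 68.4 CPM (1.08 ± 0.12). Members of this family are similar in sequence, and how the counting treated reads shared between them is not given in the sources used here.

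The single treatments were measured against the same 4 control libraries. With curcumin alone 9 of the 45 were higher and 6 lower (over all genes 14.6% were called, 6.87% higher and 7.71% lower), and with sulforaphane alone 17 were higher and 2 lower (6.71% over all genes, 4.33% higher and 2.37% lower). Compared directly, 18 of the 45 were higher and 0 lower with the combination than with curcumin, where 7.32% of all genes were called, 4.65% higher and 2.67% lower. The comparison with sulforaphane gave 6 members above it and 6 below, where 18.8% of all genes were called, 9.53% higher and 9.25% lower. Gene gst-5 averaged 36.2 CPM with curcumin and 677 CPM with sulforaphane, and the combination, at 538 CPM, was below sulforaphane (log2 difference -0.33, adjusted p = 0.033). For gst-37 the combination differed from sulforaphane alone by -0.18 with a 95% interval from -0.39 to 0.03. In contrast, gst-4 was higher with both compounds than with curcumin (log2 difference 0.82, adjusted p = 3.5e-05) and than with sulforaphane (0.56, adjusted p = 0.0012).

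Genes for conjugation to sugars were called higher in the majority. Of 62 tested UDP-glucuronosyltransferase genes (66 listed), 34 were higher and 5 lower, the median log2 change was 0.39, and the summed CPM rose from 2294 to 2510 in the control to 4154 to 4731 in the combination. Gene ugt-25 read 276, 281, 313 and 300 CPM against 1020, 963, 978 and 834 CPM (log2 change 1.70 ± 0.07), and ugt-9 changed by 3.16 ± 0.22 and ugt-8 by 2.40 ± 0.20. Genes ugt-40 (3.53 ± 0.17) and ugt-37 (3.15 ± 0.18) overlap each other, so their reads may be mixed. With curcumin alone 24 members were higher and 3 lower, and with sulforaphane alone 14 were higher and 3 lower. The combination stood above curcumin for 18 members and below it for 2, and above sulforaphane for 23 and below it for 5. The mean sums were 3284 CPM with curcumin, 3552 CPM with sulforaphane and between 4154 and 4731 CPM in each combination library.

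Export pumps were higher more often than lower. Of 55 tested ABC transporter genes (56 listed), 17 were higher and 7 lower. The P-glycoprotein gene pgp-14 had 11.8, 7.46, 9.92 and 15.7 CPM in the control and 86.5, 84.5, 86.7 and 73.5 CPM in the combination, a log2 change of 2.88 ± 0.17. The related pgp-1 (1.39 ± 0.14) and pgp-12 (1.12 ± 0.12) rose as well. For pgp-14 the combination minus sulforaphane was -0.04 on the log2 scale (95% interval -0.34 to 0.27), whereas pgp-1 was higher with the combination than with sulforaphane (0.74, adjusted p = 0.00028).

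**Figure D3:**
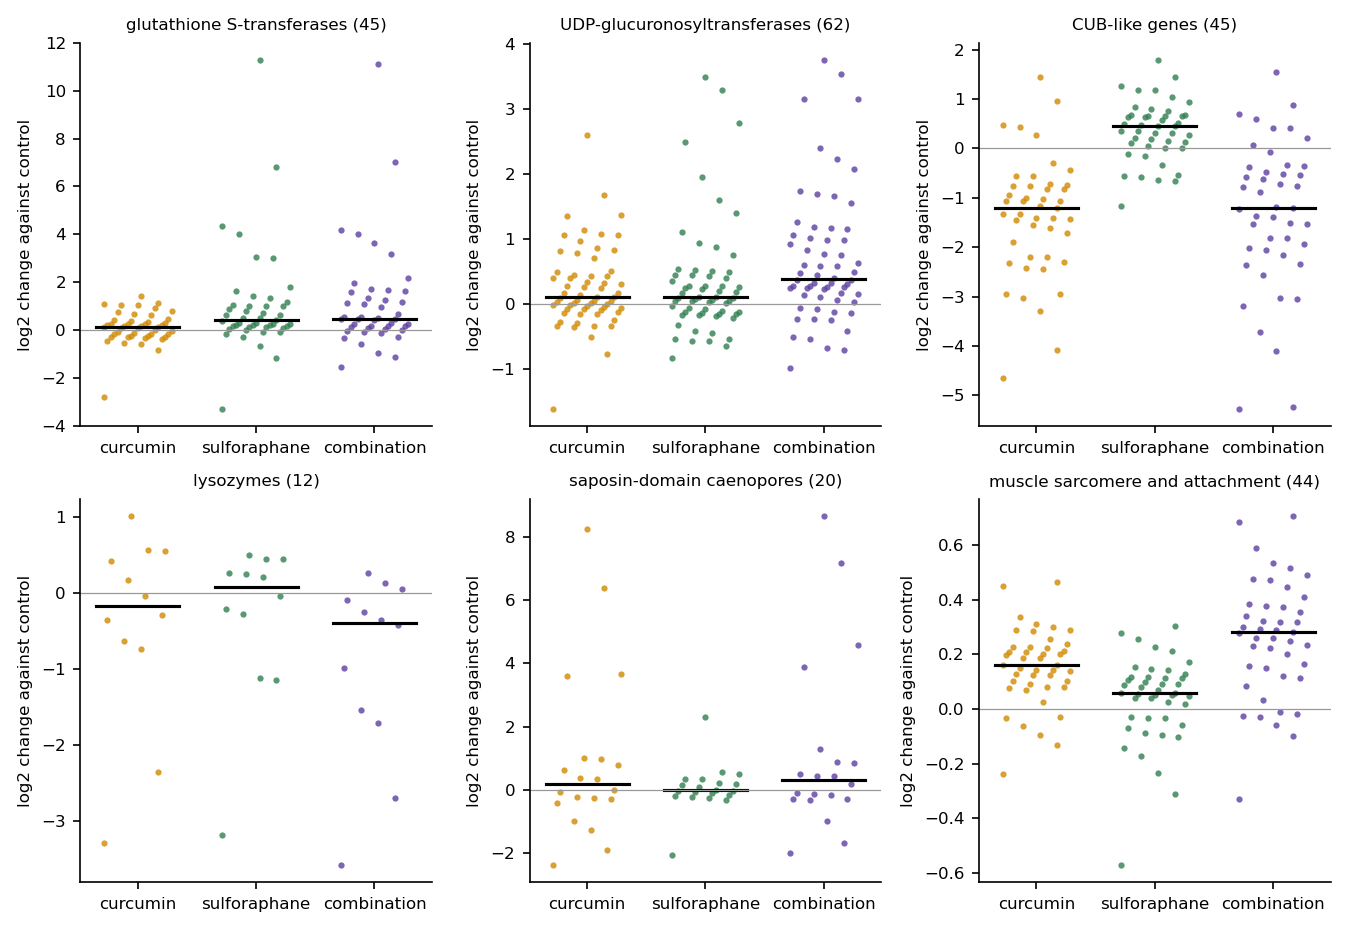
Log2 change against the control for every tested member of 6 gene lists, 1 point per gene, under curcumin, sulforaphane and the combination; the black line is the median and the number of tested members stands in the title. The medians with the combination were 0.48 for the glutathione S-transferases, 0.39 for the UDP-glucuronosyltransferases, -1.21 for the CUB-like genes, -0.38 for the lysozymes, 0.31 for the caenopores and 0.28 for the muscle genes, and all 3 treatments share the same 4 control libraries.

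The enzymes that make and use glutathione and thioredoxin rose by small amounts where they were called higher. Of 25 tested SKN-1 regulators and glutathione or thioredoxin enzymes (27 listed), 10 were higher and 3 lower, with a median of 0.21. The log2 changes ran from -2.73 to 0.84. With a required 2-fold change, 2 members were lower and 0 higher, so the largest called changes of the list were falls. The rate-limiting enzyme of glutathione synthesis, gcs-1, read 158, 193, 176 and 172 CPM in the control and 207, 227, 220 and 188 CPM in the combination (log2 change 0.27 ± 0.07, adjusted p = 0.0046), and the groups overlapped. The glutathione peroxidase genes gpx-1 (0.66 ± 0.09), gpx-2 (0.61 ± 0.08) and gpx-5 (0.58 ± 0.08) rose. Over the 8 tested genes with a glutathione peroxidase domain, 4 were higher and 1 lower. The mRNA of skn-1 itself was not called, at 0.13 ± 0.06 (adjusted p = 0.17), which says nothing about the activity of its protein. The ubiquitin-binding autophagy receptor gene sqst-1 fell by 0.33 ± 0.06 on the log2 scale.

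The cytosolic superoxide dismutase gene sod-1 rose under each compound and further under both. It read 192, 177, 176 and 167 CPM in the control and 351, 419, 316 and 342 CPM in the combination (log2 change 1.003 ± 0.09), with no overlap. The gene averaged 249 CPM with curcumin and 273 CPM with sulforaphane, and the combination was above each (log2 difference 0.52, adjusted p = 0.00021, and 0.39, adjusted p = 0.002). The mitochondrial sod-3, a target of the FOXO factor DAF-16, rose by 0.81 ± 0.12. Over the list of dismutases, catalases and peroxiredoxins, 3 of 10 tested members were higher and 2 lower (11 listed). Of 21 genes of hydrogen sulfide handling, transsulfuration and the hypoxia factor HIF-1 (25 listed), 9 were higher and 3 lower, among them the nitrilase gene nit-1 (1.11 ± 0.08), which overlaps ZK1058.9, and the mercaptopyruvate sulfurtransferase gene mpst-7 (0.96 ± 0.14), which overlaps eif-3.K.

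Chaperones of the cytosol and mitochondria mostly were not called, and of those of the endoplasmic reticulum that were called, more were lower than higher. Among 12 tested cytosolic heat shock genes (16 listed), only hsp-43 was called, at 0.79 ± 0.06. The stress-inducible hsp-16.2 had 7.90, 3.999, 5.31 and 4.08 CPM in the control and 6.80, 6.03, 4.74 and 6.60 CPM in the combination, and the groups overlapped (0.18 ± 0.23, adjusted p = 0.64). Of 17 genes of the endoplasmic reticulum unfolded protein response, 4 were lower and 1 higher. Its chaperone BiP, hsp-4, read 178, 151, 162 and 155 CPM in the control and 105, 107, 105 and 125 CPM in the combination (log2 change -0.55 ± 0.08). With curcumin alone hsp-4 changed by -0.62 ± 0.08 and with sulforaphane alone by 0.58 ± 0.08, and the combination differed from curcumin by 0.07 (95% interval -0.09 to 0.23). The mitochondrial chaperone gene hsp-6 was not called (0.08 ± 0.07, adjusted p = 0.5), while the factor atfs-1, which drives the mitochondrial response, rose by 0.53 ± 0.08. Of 31 proteasome subunits, 5 were higher and 0 lower, with rpn-8 at 0.32 ± 0.07. That count ran from 1 to 7 over the alternative analyses.

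Secreted effectors of innate immunity are given by family. Of 45 tested CUB-like genes (49 listed), which encode secreted proteins induced by pathogens, 34 were lower and 4 higher, and the median log2 change was -1.21. Their summed CPM was 8665 to 11332 in the control and 2032 to 2263 in the combination, so the ranges lay well apart. Gene dod-22, named as a gene downstream of DAF-16, read 13.97, 15.1, 12.795 and 11.5 CPM against 1.31, 0.617, 1.63 and 0.484 CPM (log2 change -3.72 ± 0.22). For C17H12.6 the values were 34.5, 37.7, 44.6 and 31.9 CPM and then 4.30, 4.66, 3.66 and 3.57 CPM (-3.20 ± 0.15).

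On these genes the single compounds changed different numbers in each direction. With curcumin alone 34 of the 45 CUB-like genes were lower and 3 higher, with a median of -1.198. With sulforaphane alone 24 were higher and 1 lower, with a median of 0.45. Directly compared, the combination was lower than sulforaphane for 37 members and higher for 4, and it was higher than curcumin for 11 and lower for 4. Gene C17H12.6 averaged 2.13 CPM with curcumin, 84.3 CPM with sulforaphane and 4.05 CPM with both, and the combination was above curcumin (log2 difference 0.88, adjusted p = 0.0071). Gene F55G11.4 went the other way, at 656 CPM with curcumin, 5362 CPM with sulforaphane and 138 CPM with both, which was below curcumin (-2.25, adjusted p = 3.3e-16).

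Lysozymes, which cut bacterial cell walls, were lower where they were called. Of 12 tested members (16 listed), 7 were lower, 0 higher and 5 not called, with a median of -0.38, and their sum went from 21534 to 26039 CPM in the control to 10212 to 11602 CPM in the combination. Beside lys-7, the gene lys-4 read 152, 136, 133 and 115 CPM in the control and 21.1, 17.5, 24.38 and 20.0 CPM in the combination (log2 change -2.69 ± 0.10). The invertebrate-type lysozyme gene ilys-3 was higher than the control with curcumin alone (1.02 ± 0.31) and lower with sulforaphane alone (-3.18 ± 0.43), and with both it stood at -1.71 ± 0.36, below curcumin (log2 difference -2.73, adjusted p = 5.4e-06) and above sulforaphane (1.47, adjusted p = 0.035). For lys-7 the combination was lower than either compound alone, by 0.91 below curcumin (log2 difference -0.91, adjusted p = 1.7e-10) and by 1.26 below sulforaphane (-1.26, adjusted p = 1.1e-13).

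Lectins, caenopores and the skin peptides had patterns of their own. Of 113 tested C-type lectin genes (239 listed), 36 were lower and 20 higher. The lectin gene clec-66 read 52.5, 55.2, 47.9 and 40.5 CPM against 9.05, 9.19, 8.94 and 7.20 CPM (log2 change -2.51 ± 0.13), and clec-218 went up from 23.5, 24.39, 32.4 and 33.8 CPM to 124, 103, 129 and 111 CPM (2.03 ± 0.11). Of 20 tested caenopores (23 listed), 9 were higher and 6 lower, and their sum rose from 3350 to 4015 CPM to 6252 to 7040 CPM. Gene spp-9 made up a large part of that gain, spp-23 rose by 3.90 ± 0.14, and spp-2 changed by -1.66 ± 0.09. Of 14 tested epidermal antimicrobial peptides (19 listed), 7 were higher and 0 lower, with a median of 0.91. The caenacin gene cnc-4 read 18.6, 17.8, 16.0 and 15.5 CPM in the control and 48.5, 53.1, 69.3 and 70.3 CPM in the combination (1.83 ± 0.13), and nipi-3, a kinase-like regulator of these peptides, rose by 0.56 ± 0.07.

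In the intracellular pathogen response, which worms switch on against microsporidia and virus, the genes called were mainly lower. Of 32 tested members of the pals family and its ubiquitin ligase parts (42 listed), 12 were lower, 1 higher and 19 not called. Gene pals-37 read 15.4, 13.9, 13.8 and 11.8 CPM against 4.24, 3.02, 5.42 and 5.45 CPM (log2 change -1.59 ± 0.15), and the Skp1-related skr-5 changed by -1.12 ± 0.14. Of 17 genes named dod or irg, from the response to insulin signalling or infection, 10 were lower and 2 higher. The infection response gene irg-7 changed by -0.69 ± 0.06 with the combination and by -0.71 ± 0.06 with curcumin, and it rose by 0.51 ± 0.06 with sulforaphane. Among other adaptor families, 23 of 134 tested F-box genes were lower and 6 higher (322 listed), and 9 of 52 tested MATH and BATH genes were lower and 0 higher (73 listed), among them math-41 (-1.93 ± 0.13).

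Digestive and lysosomal enzymes divided. Of 29 tested aspartyl, cysteine and prolyl proteases (32 listed), 12 were higher and 13 lower, and DESeq2's Wald test turned that majority. The cathepsin B gene cpr-1 rose from 339, 517, 414 and 407 CPM to 2329, 2683, 1771 and 2387 CPM (log2 change 2.45 ± 0.12), and the prolyl carboxypeptidase gene pcp-1 rose by 1.27 ± 0.07. Of 9 tested lipases (11 listed), 5 were lower and 2 higher, and their sum fell from 1339 to 1611 CPM to 316 to 397 CPM, with lipl-5 the main contributor. Gene lipl-2 read 98.8, 88.4, 83.0 and 78.1 CPM against 22.02, 18.03, 17.1 and 10.53 CPM (-2.36 ± 0.14). The adipose triglyceride lipase gene atgl-1, which acts on stored fat rather than in the lysosome, rose by 0.77 ± 0.09. Of 47 genes of the vacuolar ATPase and of autophagy, 14 were lower and 9 higher, among them the intestinal proton pump subunit gene vha-6 (-0.66 ± 0.07) and the autophagy genes epg-5 (-0.52 ± 0.08) and atg-13 (-0.47 ± 0.08).

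Among genes for burning fatty acids, those called were more often higher than lower. Of 61 tested genes of fatty acid activation and beta-oxidation (63 listed), 26 were higher, 8 lower and 27 not called, with a median of 0.19. The carnitine palmitoyltransferase gene cpt-3, of the family that carries fatty acids into mitochondria, read 81.4, 77.0, 67.6 and 66.003 CPM in the control and 616, 578, 384 and 449 CPM in the combination (log2 change 2.80 ± 0.15). The acyl-CoA synthetase gene acs-1, which activates branched-chain fatty acids, rose by 1.06 ± 0.06. In the other direction went the peroxisomal genes ech-9 (-1.75 ± 0.17) and acox-1.5 (-1.66 ± 0.18), the latter an acyl-CoA oxidase.

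Both cpt-3 and acs-1 were higher with the combination than with either compound. Gene cpt-3 averaged 148 CPM with curcumin and 60.7 CPM with sulforaphane, where it was not called (-0.27 ± 0.15, adjusted p = 0.35), against 507 CPM with both. The log2 difference from curcumin was 1.78 (adjusted p = 2.6e-09). For acs-1 the differences were 0.39 from curcumin (adjusted p = 8.3e-05) and 0.71 from sulforaphane (adjusted p = 2.6e-09).

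Desaturases and elongases, which set the makeup of membrane and storage lipids, went both ways, with 3 of 7 desaturases higher and 3 lower. The stearoyl-CoA desaturase gene fat-7 read 5.31, 8.06, 5.49 and 4.59 CPM in the control and 0.873, 0.206, 1.08 and 0.121 CPM in the combination (log2 change -3.35 ± 0.35). The related fat-6 changed by -0.60 ± 0.14, while the palmitoyl-CoA desaturase fat-5 was called higher at 0.44 ± 0.15 (adjusted p = 0.038), with overlapping groups, and lost its call in 8 of the alternatives. The omega-3 desaturase gene fat-1 rose from 3085, 3228, 3191 and 3196 CPM to 5541, 5624, 5409 and 5152 CPM (0.77 ± 0.06). Of 9 elongases, 4 were higher and 1 lower, a lean that library size alone reduced to 4 and 3 and the replicate block to 4 and 4, among them elo-6 (1.11 ± 0.07), which makes branched-chain fatty acids.

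Among the yolk genes called higher, vit-3 and vit-4 rose most in fold. Of the 6 vitellogenin genes, 4 were higher, 0 lower and 2 not called, and their sum went from 189307 to 196805 CPM to 220830 to 254521 CPM. Gene vit-3 read 1549, 1486, 1551 and 1504 CPM against 6408, 7339, 6270 and 6137 CPM (log2 change 2.103 ± 0.07), and vit-4 rose by 1.92 ± 0.07. Compared with the single compounds, vit-3 averaged 4280 CPM with curcumin and 2073 CPM with sulforaphane, and the combination was above both (0.61, adjusted p = 5.7e-07, and 1.66, adjusted p = 2.6e-15). For vit-5 the combination was above sulforaphane (0.37, adjusted p = 2.5e-05) and differed from curcumin by 0.04, with a 95% interval from -0.07 to 0.16. The genes vit-3, vit-4 and vit-5 are close copies, and reads may have been divided between them.

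Carriers and receptors for lipid also changed. Of 17 tested lipid-binding proteins, 5 were higher, 5 lower and 7 not called, with a median log2 change of -0.17. The fatty acid and retinol binding protein gene far-3, which overlaps far-5, rose from 1195, 1069, 1082 and 1003 CPM to 2379, 2530, 2691 and 2502 CPM (log2 change 1.22 ± 0.07), above both curcumin (0.64, adjusted p = 8.3e-07) and sulforaphane (0.48, adjusted p = 1.5e-05). The intracellular lipid-binding gene lbp-7 was lower with curcumin (-0.74 ± 0.13), higher with sulforaphane (1.14 ± 0.12) and higher with both (0.92 ± 0.12). Of 8 scavenger receptors and carotenoid oxygenases, 5 were lower and 2 higher. The beta-carotene oxygenase gene bcmo-1, which makes retinal, read 17.6, 15.7, 16.0 and 16.3 CPM against 1.12, 1.37, 0.406 and 1.21 CPM (-3.98 ± 0.26). It averaged 4.49 CPM with curcumin and 1.92 CPM with sulforaphane, and the combination was below curcumin (-2.12, adjusted p = 7.5e-06). The combination was also called below sulforaphane (log2 difference -0.89).

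Sphingolipid genes were evenly divided, with 7 of 23 higher and 7 lower. Acid ceramidase, asah-1, which breaks down ceramide, rose from 60.2, 58.6, 60.7 and 54.6 CPM to 313, 349, 263 and 249 CPM (log2 change 2.33 ± 0.09). The serine palmitoyltransferase gene sptl-3, which starts sphingolipid synthesis, rose by 1.501 ± 0.06. The glucosylceramidase genes parted, since gba-2, which overlaps gba-1, rose by 3.20 ± 0.14 while gba-4 was among the deepest falls. For asah-1 the combination differed from curcumin by 0.11 (95% interval -0.07 to 0.29), and for sptl-3 it was above curcumin (0.42, adjusted p = 1.5e-05) and above sulforaphane (1.09, adjusted p = 4e-13).

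In central carbon metabolism the majority of genes were not called. Of 48 genes of glycolysis, gluconeogenesis and the citric acid cycle, 19 were higher, 1 lower and 28 not called, with a median of 0.12. Pyruvate carboxylase, pyc-1, read 492, 404, 353 and 408 CPM in the control and 681, 651, 593 and 645 CPM in the combination (log2 change 0.63 ± 0.08), fructose bisphosphatase fbp-1 rose by 0.55 ± 0.06, and the phosphoenolpyruvate carboxykinase gene pck-2 by 0.30 ± 0.07. In the separate list of 11 trehalose and glycogen genes, 5 were higher and 2 lower, with a median of 0.16. Its acid alpha-glucosidase gene aagr-1, whose enzyme breaks down glycogen in the lysosome, changed by -1.14 ± 0.07. Of 49 tested respiratory chain and ATP synthase genes (51 listed), 4 were higher (8.16%) and 1 lower (2.04%). Both were under the shares over all genes, 12.1% and 10.99%, and scaling by library size alone gave 0 higher and 1 lower. Of 82 tested cytosolic ribosomal proteins (83 listed), 0 were higher and 6 lower with a median of -0.14. The 7.32% called lower was also under the share over all genes, 10.99%. The number lower ran from 1 to 27 over the alternatives, with 27 for library size alone and 24 for the replicate block.

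Metal handling showed single genes with strong changes. Of 30 tested genes (31 listed), 6 were higher and 5 lower, a balance that turned with library size alone, with the filter of at least 1 read and without combination replicate 2. The cadmium-responsive gene cdr-4 read 69.0, 71.6, 67.4 and 57.5 CPM against 1185, 1125, 1039 and 923 CPM (log2 change 4.01 ± 0.11), and it was lower with the combination than with sulforaphane alone (-0.65, adjusted p = 2.1e-05). Ferritin, ftn-1, which stores iron, rose from 336, 334, 302 and 283 CPM to 684, 884, 787 and 649 CPM (1.26 ± 0.10), after a rise with curcumin (1.197 ± 0.10) and a fall with sulforaphane (-0.56 ± 0.10). The metal transporter gene smf-3, which takes up iron, changed by -0.65 ± 0.12. The metallothionein gene mtl-1 was not called (-0.26 ± 0.15, adjusted p = 0.25).

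Contractile genes of muscle that were called were higher, by small amounts. Of 44 genes of the sarcomere and its attachments, 24 were higher, 0 lower and 20 not called, with a median log2 change of 0.28. With curcumin alone 9 were higher and 0 lower, and with sulforaphane alone 1 was higher and 0 lower. The body-wall myosin gene unc-54 read 727, 737, 757 and 882 CPM in the control and 1067, 1304, 859 and 1132 CPM in the combination (0.49 ± 0.11, adjusted p = 0.002), where the lowest treated library lay under the highest control library. Troponin T, tnt-2, read 81.0, 73.4, 67.8 and 77.7 CPM against 120, 141.9, 95.3 and 125 CPM (0.69 ± 0.10) without overlap, and the actin gene act-4 rose by 0.54 ± 0.08. For unc-54 the combination differed from curcumin by 0.18, with a 95% interval from -0.05 to 0.42. Gene myo-3 was called at 0.22 ± 0.08 (adjusted p = 0.041) and lost the call in 10 of the alternatives.

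Cuticle collagens were not called in the majority, and those called were mainly higher. Of 60 tested col collagens (156 listed), 25 were higher, 3 lower and 32 not called, with a median of 0.39. Gene col-80, which overlaps dph-2, read 78.8, 46.7, 66.3 and 59.4 CPM in the control and 202, 285, 270 and 252 CPM in the combination (log2 change 2.005 ± 0.13). The adult collagen gene col-19 was not called (-0.35 ± 0.14, adjusted p = 0.079). Of 48 tested hedgehog-related and patched-related genes (85 listed), which act in the epidermis and in moulting, 20 were higher, 1 lower and 27 not called, and their sum was 1595 to 1735 CPM in the control and 2388 to 2536 CPM in the combination. Of 8 tested markers of the moulting larva, 4 were higher (mlt-11, noah-1, noah-2 and ptr-4, the last also in the patched-related list) and nas-37 was lower, and the 10 listed markers summed to 65.7 to 69.3 CPM in the control and 63.1 to 71.1 CPM in the combination. Of 6 tested markers of the hypodermis, the worm epidermis, bli-1 was higher and 0 were lower, with a sum of 134 to 166 CPM in the control and 132 to 166 CPM in the combination. The part of either in these results was not tested. Gene ptr-24 went from 160, 173, 175 and 179 CPM to 619, 623, 649 and 558 CPM (1.83 ± 0.06), and the combination was above curcumin by 0.32 on the log2 scale (adjusted p = 0.00091).

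Several structural genes of the intestine fell while others of the epidermis rose. The following genes were chosen after their values were seen. Of 12 tested intermediate filament genes, 5 were higher and 4 lower. The 4 lower ones, ifb-2 (log2 change -1.18 ± 0.13), ifc-2 (-0.84 ± 0.06), ifd-1 (-0.92 ± 0.11) and ifd-2 (-0.69 ± 0.11), form the sheet beneath the gut lumen. Of the higher ones, mua-6 (0.99 ± 0.08), ifb-1 (0.74 ± 0.06) and ifa-1 (0.68 ± 0.07) belong to the attachment of epidermis and cuticle, and ifc-1, also known from the intestine, rose by 2.46 ± 0.50 from 0.192 ± 0.105 CPM (SD, n = 4). Gene ifb-2 read 73.5, 78.1, 89.1 and 90.9 CPM in the control and 25.8, 31.9, 41.1 and 46.98 CPM in the combination, while mua-6 read 119.03, 115, 107 and 93.7 CPM and then 224, 238, 187 and 213 CPM. In neither gene did the groups overlap.

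Other intestinal genes, also chosen after their values were seen, were lower too. The genes pept-1, act-5 and elt-2 below, and ifb-2 above, are among the intestinal markers already counted as lower, so they add no separate observation. The peptide transporter gene pept-1 read 69.9, 101, 125 and 120 CPM in the control and 31.4, 26.2, 41.4 and 35.2 CPM in the combination (log2 change -1.63 ± 0.15), below both curcumin (-0.91, adjusted p = 0.0002) and sulforaphane (-1.51, adjusted p = 3.3e-08). The microvillar actin gene act-5 changed by -0.52 ± 0.09 with the combination and by -0.68 ± 0.09 with curcumin, and it rose by 0.58 ± 0.09 with sulforaphane. The GATA factor gene elt-2, which maintains intestinal identity, read 32.7, 33.5, 30.9 and 27.4 CPM against 22.2, 22.8, 23.1 and 24.1 CPM (-0.43 ± 0.09). These falls stand beside the rise of yolk genes, which are also made in the intestine.

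**Figure D4:**
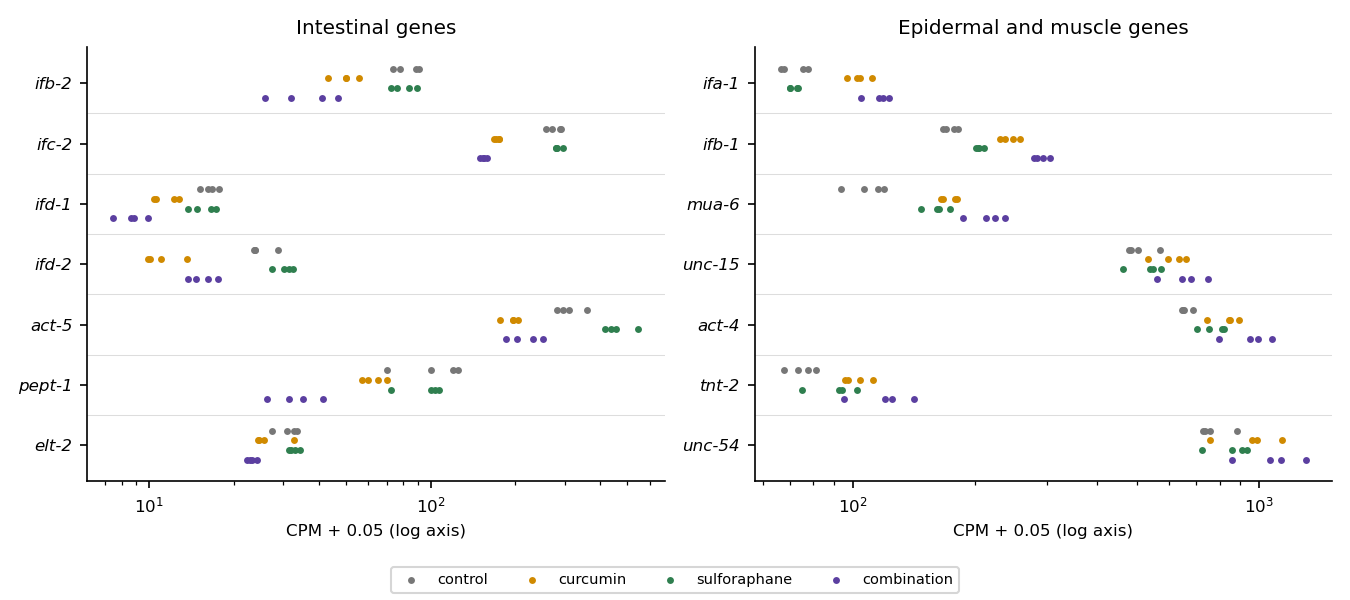
CPM plus 0.05 on a log axis for 7 intestinal genes (left) and 7 epidermal or muscle genes (right), 1 point per library and 4 libraries per group. The combination libraries lie left of the control for the intestinal genes and right of it for the others, with overlap in unc-15 and unc-54. The genes drawn were chosen with their changes known, so this split follows from the choice and does not describe whole tissues. The intestinal genes ifc-1, which rose, and vit-2, which was not called, are not drawn.

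Insulin pathway genes were mostly not called. Of 35 tested insulin-like peptide and insulin pathway genes (49 listed), 7 were lower and 1 higher, and the number higher ran from 1 to 5 over the alternatives, the most with the replicate block. The insulin-like peptide gene ins-7, an agonist of the insulin receptor DAF-2, read 87.05, 86.6, 89.7 and 78.8 CPM in the control and 24.39, 20.8, 43.3 and 31.8 CPM in the combination (log2 change -1.51 ± 0.14). The kinase gene sgk-1 changed by -0.98 ± 0.09. The mRNA of daf-16 was called at -0.19 ± 0.07 (adjusted p = 0.036), with overlapping groups, and lost the call in 9 of the alternatives. Of 193 tested nuclear hormone receptors (273 listed), 13 were higher and 19 lower, under the shares over all genes in the first case and close to them in the second. Gene nhr-8, needed for resistance to xenobiotics and for cholesterol balance, read 57.7, 69.8, 67.5 and 59.7 CPM against 20.1, 21.3, 25.2 and 21.9 CPM (-1.52 ± 0.10). Of 97 tested neuropeptide genes (102 listed), 7 were higher (7.22%) and 2 lower (2.06%), both under the shares over all genes, 12.1% and 10.99%.

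Direct tests set the combination beside each compound alone. Of the 1728 genes higher than control, 507 were also called above curcumin alone, 1002 above sulforaphane alone and 317 above both. Of the 1575 lower genes the numbers called below were 277, 934 and 158. Over all tested genes, 4.65% were called above curcumin and 9.53% above sulforaphane, and 2.67% and 9.25% below them. The same combination libraries served to choose these genes and to compare them with each compound. The choice therefore favours such calls, and the counts are descriptive. Some genes stood near their level with sulforaphane alone. Gene stdh-2, not called with curcumin (adjusted p = 0.78), averaged 1.77 CPM with curcumin and 264 CPM with sulforaphane, and the combination minus sulforaphane was 0.18 (95% interval 0.02 to 0.35, adjusted p = 0.13). For cyp-13A10 that difference was 0.13 (interval -0.04 to 0.29) and for ugt-25 0.10 (interval -0.03 to 0.24).

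Other genes stood near their level with curcumin alone. For cpr-1 the combination minus curcumin was -0.03 on the log2 scale (95% interval -0.27 to 0.21), for nhr-8 0.02 (interval -0.19 to 0.22), for ins-7 0.20 (interval -0.10 to 0.50) and for ftn-1 0.06 (interval -0.13 to 0.26). Gene fat-7 differed by 0.30 with a wide interval, from -0.72 to 1.31, because few reads remained. Each of these 5 genes was called against sulforaphane alone, with log2 differences of 2.73, -1.78, -1.36, 1.82 and -3.996 in that order.

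Further genes went beyond both compounds, as described above for gst-4, sod-1, fmo-3, vit-3, acs-1, sptl-3, far-3 and lys-7. The lipase gene lipl-5 averaged 148 CPM with curcumin and 1127 CPM with sulforaphane, where it was not called (0.02 ± 0.11, adjusted p = 0.95), and 43.8 CPM with both, which was below curcumin (log2 difference -1.76, adjusted p = 1e-10). The myo-inositol transporter genes hmit-1.1 and hmit-1.2, chosen after their values were seen, stood likewise, above both compounds. The related hmit-1.3 went the other way, with a log2 change of -1.06 from the control. It was called below both curcumin (log2 difference -0.36) and sulforaphane (-0.74). Gene hmit-1.1 read 16.4, 13.3, 14.04 and 16.3 CPM in the control and 85.4, 86.7, 68.7 and 80.03 CPM in the combination (2.42 ± 0.10), against means of 56.5 CPM with curcumin and 44.7 CPM with sulforaphane. Gene hmit-1.2 rose by 2.95 ± 0.15, above curcumin by 1.22 (adjusted p = 2.3e-07) and above sulforaphane by 1.37 (adjusted p = 1e-08).

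**Figure D5:**
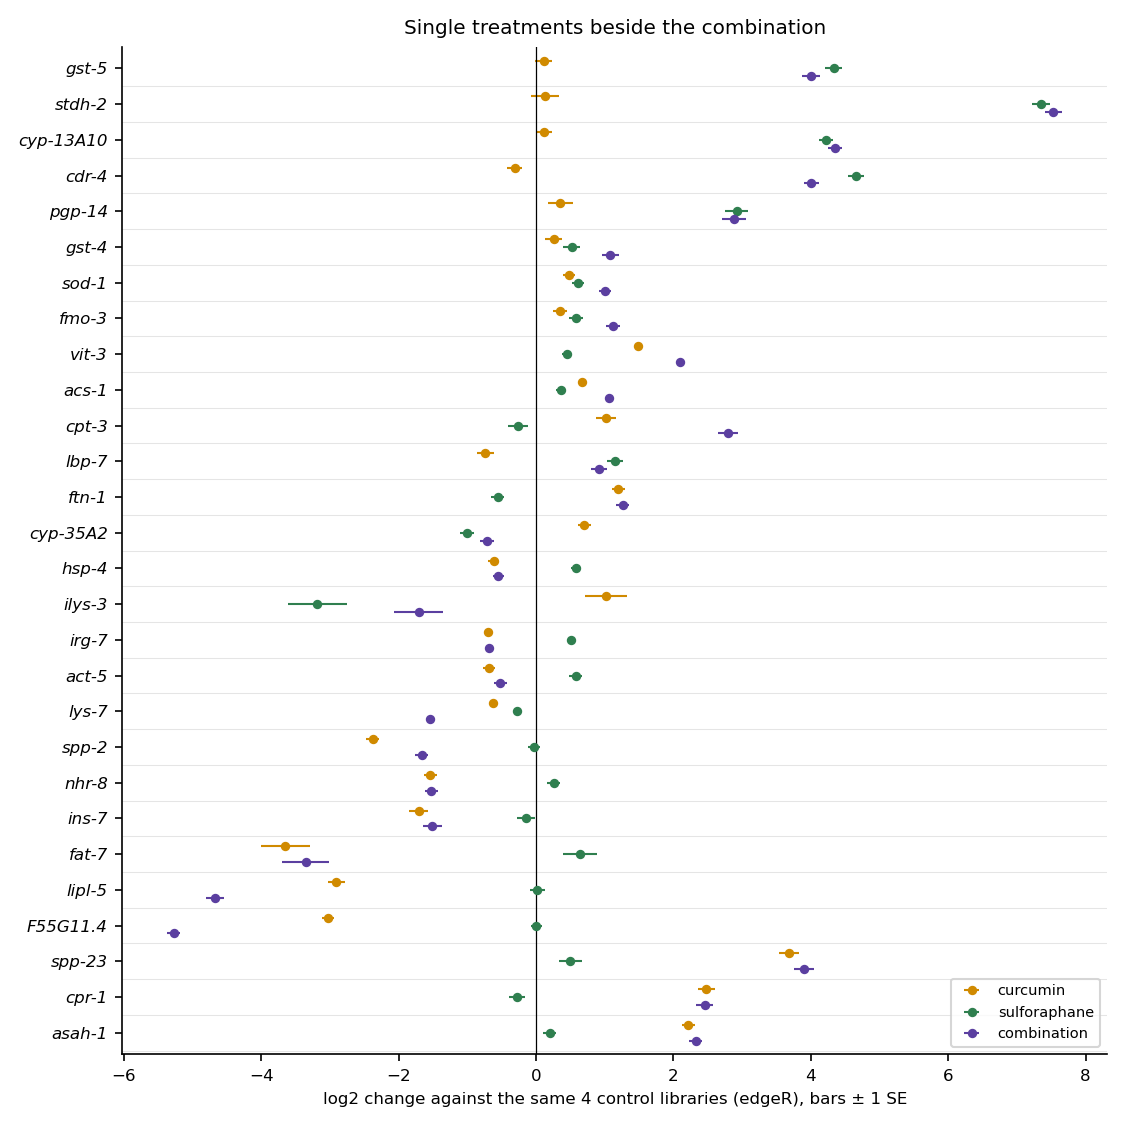
Log2 change against the same 4 control libraries for 28 genes under curcumin, sulforaphane and the combination; points are edgeR estimates and bars are ± 1 SE. The combination lies with sulforaphane for genes such as stdh-2 and cyp-13A10, with curcumin for cpr-1 and asah-1, and beyond both for sod-1, vit-3 and lys-7.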

How the data were processed

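PolyA RNA of whole worms was sequenced. The authors deposited raw counts per gene and FPKM values, 1 column per library. The submitters' processing notes name HISAT2 2.0.5, StringTie 1.3.3b, featureCounts 1.5.0-p3, DESeq2 1.20.0 and the build WBcel235; the strandedness of the counting and its treatment of shared reads are not given in the sources used here. The deposited counts were analysed in edgeR 4.0.16 (R 4.3.3): filterByExpr with a minimum count of 10 and total of 15, TMM scaling, 1 mean per group over all 16 libraries, two-sided quasi-likelihood F tests, Benjamini-Hochberg adjustment over 14328 genes, and calls at an adjusted p under 0.05. The SE is the log2 change divided by the square root of F and may be too small at few counts. Counting intervals have 95% confidence and cover counting error only. In simulated counts of 14132 tested genes, 100 were changed 2-fold and 100 were changed 1.5-fold, and 78% and 53% of them were recovered. A far smaller share of genes was changed there than was called in the data, so these values do not give the recovery in the comparison itself.

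Members, the 52 lists and the naming rule were chosen with earlier results of these data known. The rule took the 10 largest rises and falls, limited to genes at 5 CPM or more on average whose control and combination libraries did not overlap. It also took the 10 largest gains and losses of CPM, up to 4 called members and the highest member of each list, and 17 fixed genes. The text gives those its results turn on. The deposited FPKM values entered limma 3.58.1 alternatives on log2 of FPKM plus a pseudocount. Counts were also run in DESeq2 1.42.0.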

Additional observations from a re-analysis of the deposited data

Results flagged for a closer look

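Of 278 groups of 4 libraries tested, over the genes named in the text in control and combination, 8 held 1 library far from the other 3. Chance picks out about 1 in 20 groups. In the control, irg-7 was 1825 CPM in replicate 4 against 2037 to 2049 CPM in the others, mtl-1 was 95.02 CPM in replicate 4 against 104.05 to 106 CPM, C11H1.9 was 21.5 CPM in replicate 2 against 22.9 to 23.2 CPM, and ifd-2 was 28.7 CPM in replicate 2 against 23.5 to 23.8 CPM. For gst-37, control replicate 3 held 0.0624 CPM and the others 0. In the combination, all 3 such groups had replicate 4 apart: pgp-14 at 73.5 CPM against 84.5 to 86.7 CPM, hsp-4 at 125 CPM against 105 to 107 CPM, and clec-66 at 7.20 CPM against 8.94 to 9.19 CPM. All 8 genes kept their side of the test's threshold when that library was left out.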

How the results depend on the processing

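Of 3303 genes called for the combination against control (1728 higher, 1575 lower), between 2906 and 3213 were called when 1 library was left out (1483 to 1692 higher, 1388 to 1606 lower). DESeq2's size factors gave 3303 calls, library size alone 3434 (1481 higher, 1953 lower), a filter of at least 1 read 3416, a filter of 10 counts in every sample 3129, the 8 libraries alone 3018, the DESeq2 Wald test 3413, and limma on FPKM 3221 or 3193 with a pseudocount of 1 or 0.1. A required 2-fold change left 821 (377 higher, 444 lower), with 19 in place of 30 lists holding more higher than lower calls, as its construction asks for more. Of 134 called genes named in the text, 131 kept their call under all of these but the fold condition, while fat-5 lost it in 8, daf-16 in 9 and myo-3 in 10 of them, with adjusted p up to 0.158 by edgeR, DESeq2 or limma. Among cytosolic ribosomal proteins, between 1 and 27 were called lower, 27 with library size alone and 24 with the replicate block. The cause was not tested. Genes with few counts limit the precision of the largest folds.

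The replicate block gave 3981 calls (1982 higher, 1999 lower), 3299 of them shared with the fit without it. Same-numbered libraries correlated at 0.0516 to 0.196, with 2 of 4 pairs over 0.1, so the numbers were not taken to pair the samples, although 8 of 8 libraries correlated best with their own number, a hint from the data and not the design.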

Other observations

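Protein domains annotated in the authors' table showed further families outside the lists, chosen after their values were seen and given with no test of the family. The background shares are those over all tested genes, 12.1% higher and 10.99% lower. Of 21 tested genes with a transmembrane glycoprotein domain, 14 were lower and 3 higher with the combination, with a median log2 change of -0.81. Beside Y47H9C.1 and B0024.4, the gene ZK6.11 read 870, 883, 729 and 611 CPM in the control and 79.98, 79.3, 124 and 117 CPM in the combination (log2 change -2.95 ± 0.13, SE). It averaged 97.5 CPM with curcumin and 1326 CPM with sulforaphane, so the combination libraries stood near the former. Of 10 tested serine carboxypeptidase S28 genes, a family of lysosomal and secreted prolyl peptidases, 7 were lower and 1 higher, and 5 of the 10 also stand in the lists above. Its member K12H4.7 averaged 264 CPM in the control, 84.7 CPM with curcumin, 437 CPM with sulforaphane and 120 CPM with both, and the combination was above curcumin (log2 difference 0.51, adjusted p = 0.00036). Of 18 claudin-like genes, which resemble proteins of cell junctions, 8 were lower and 1 higher.

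Other families were mostly higher or divided. Of 13 genes with a CRAL/TRIO domain, which binds small lipids, 8 were higher and 2 lower, with a median of 0.45. Gene ctg-2 rose from 13.9 ± 0.957 CPM (SD, n = 4) to 70.9 ± 9.08 CPM, the lowest combination library reading 58.3 CPM (log2 change 2.35 ± 0.11), R03A10.5 rose by 0.65 ± 0.07 and C11H1.9, which overlaps prx-1, by 0.69 ± 0.07. Of 9 genes of the Ctr copper transporter family, 4 were higher and 4 lower. Gene K12C11.6 read 9.67, 7.40, 7.93 and 9.06 CPM against 2.99, 1.92, 2.03 and 2.24 CPM (-1.88 ± 0.24), and its neighbour by name K12C11.7 changed by -1.22 ± 0.14, while F58G6.9 rose by 0.75 ± 0.11. Among 410 tested pseudogenes 18 were higher and 29 lower, and among 45 long noncoding RNAs 2 were higher and 2 lower.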
